A study of Mus musculus with 11 samples.

Results

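The regions described here, chosen by the H3K79me2 lists of both stages, are 2386 wide islands of H3K79me2 that were found in adult but not in neonatal mouse cardiomyocytes, called members below. An island is a stretch of enriched reads that the caller SICER joined from windows of 200 bp. The members are the adult H3K79me2 islands on chromosomes 1 to 19 that were at least 8000 bp wide, carried a score under 0.1 per bp and shared no base with a neonatal H3K79me2 island. They make up 3.95% (95% Wilson interval 3.80 to 4.11) of the 60348 adult H3K79me2 islands and 35.5% (34.3 to 36.6) of the 6727 adult islands of that width. The other 4341 wide islands, which overlap a neonatal H3K79me2 island, are the set beside which the members are shown. The limit on score per bp removed no wide island. Because neonatal and adult H3K79me2 chose the members, the values of that mark are given as a description and were not tested.

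The study mapped 4 methylation marks of histone H3 by chromatin immunoprecipitation and sequencing in 11 libraries. Neonatal cardiomyocytes came from mice of 1 day, and adult cardiomyocytes came from the left ventricle of mice of 2 months. Neither strain nor genotype nor a treatment is named in the labels, so that age and heart region change together from one stage to the other. Each mark has 1 library per stage, the other 3 libraries are inputs, and mouse embryonic stem (mES) cells, which are no samples of the series, enter as the authors' deposited lists of islands and tables.

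H3K79me2 is placed by the methyltransferase DOT1L and lies along the first part of the bodies of transcribed genes, whereas H3K4me3 marks promoters. H3K27me3 is the mark of Polycomb repression and H3K9me3 a mark of heterochromatin. Mouse hearts that lack DOT1L develop dilated cardiomyopathy. Positions are in the mouse build mm9, for which no gene annotation was used here, so members are named by position alone.

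Each group is 1 library, so no stage difference given here is backed by replicates. A change of the mark within cardiomyocytes and a change in the share of cells that carry it cannot be told apart. The lists differed in length, with 17697 neonatal and 60348 adult H3K79me2 islands on these chromosomes. Adult lists also held more islands for H3K27me3, with 23559 against 13303, and for H3K9me3, with 14658 against 7727, while H3K4me3 had 23580 adult and 20655 neonatal islands. The regions of the H3K79me2 stage table held 1523793 neonatal and 1902007 adult reads. These sums cover only regions listed as different between the stages and do not measure the depth of the libraries. The normalisation of that table multiplied neonatal reads by 1.41 and adult reads by 0.707. The part of the shorter neonatal list in the choice of members was not tested.

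The members covered 26.2 Mb, or 10.04% of the length of all adult H3K79me2 islands. Their median width was 9800 bp, with quartiles of 8800 and 12200 bp and a maximum of 44800 bp. The shared wide islands had a median of 11400 bp and a maximum of 84200 bp. Scores of members ran from 84 to 938 with a median of 162, against a median of 214 for the shared wide islands. Per kb of width, the median score was 16.1 in the members and 18.6 in the shared wide islands. Members were thus somewhat narrower and less dense than the wide islands found at both stages.

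Both limits of the rule cut through a continuum. At a width of exactly 8000 bp, 164 of 361 adult islands (45.4%) had no neonatal H3K79me2 island, and at 7800 bp, the next narrower width, 176 of 364 (48.4%) had none. The 164 islands just inside and the 176 just outside the width limit, all without a neonatal H3K79me2 island, carried other marks at similar rates. A neonatal H3K4me3 island was found at 15.2% of the 164 and 15.9% of the 176, a neonatal H3K27me3 island at 6.71% and 6.82%, an adult H3K4me3 island at 22.6% and 20.5%, and an mES H3K79me2 island at 25% and 20.5%. The islands of highest score just inside were chr2:166924600-166932599 with a score of 208, chr5:106234000-106241999 with 177, chr1:95151400-95159399 with 172 and chr7:130328800-130336799 with 170. Just outside stood chr15:75664800-75672599 with a score of 215, chr2:32229400-32237199 with 198, chr2:132129800-132137599 with 187 and chr12:112682000-112689799 with 184. On the side of the overlap, 117 wide islands shared 1000 bp or less with a neonatal island, and another 117 that count as members lay within 1000 bp of one, 24 of them in direct contact.

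Read values came from the authors' deposited tables of stage comparisons, in which every region has a false discovery rate under 0.01. This is a rate for reads of 1 library against those of another, with no spread between animals in it. The H3K79me2 table listed 573 members (24.0%, 22.3 to 25.8) as higher in adult, where 11.4% of all adult H3K79me2 islands were so listed. It listed 27 members (1.13%) as lower in adult, where 19.5% of all adult islands were. Of the shared wide islands, 27.9% were listed as higher and 45.6% as lower. Nothing is read from these shares, because the rule used this contrast. The regions of the tables are wider than many members, and 25 of the 27 regions listed as lower held a neonatal H3K79me2 island beside the member.

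Presence in a table depended on islands of other lists. All 12 tables drew on 1 set of 18768 regions that did not overlap each other. Of the 908 members with no island of any other list, 18 (1.98%) overlapped a region of any table, against 613 of the 1478 members (41.5%) with an island of another list. The H3K79me2 stage table covered 21.6% of the members with an island of 1 other list, 33.7% with 2, 46.6% with 3 and 76.1% with 4 or more. Table values therefore describe the members that carried other marks far more than those that carried none.

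Among the 498 H3K79me2 table regions that overlapped a member and held no neonatal H3K79me2 island, 496 were higher and 2 lower in adult, where 54.4% of all regions of that table were higher and the rest lower. Neonatal reads stood at the lowest value of the table, 1 read, in 286 of them (57.4%). The neonatal upper quartile was 12 reads and the highest count 76. Adult reads ran from 11 to 1097 with a median of 186.5. The median difference of the log2 values, adult minus neonatal, was 5.08, with quartiles of 2.58 and 6.65. Most of these regions thus stood at the lowest neonatal value, and in the others the neonatal counts overlapped the lower part of the adult range.

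**Figure D1:**
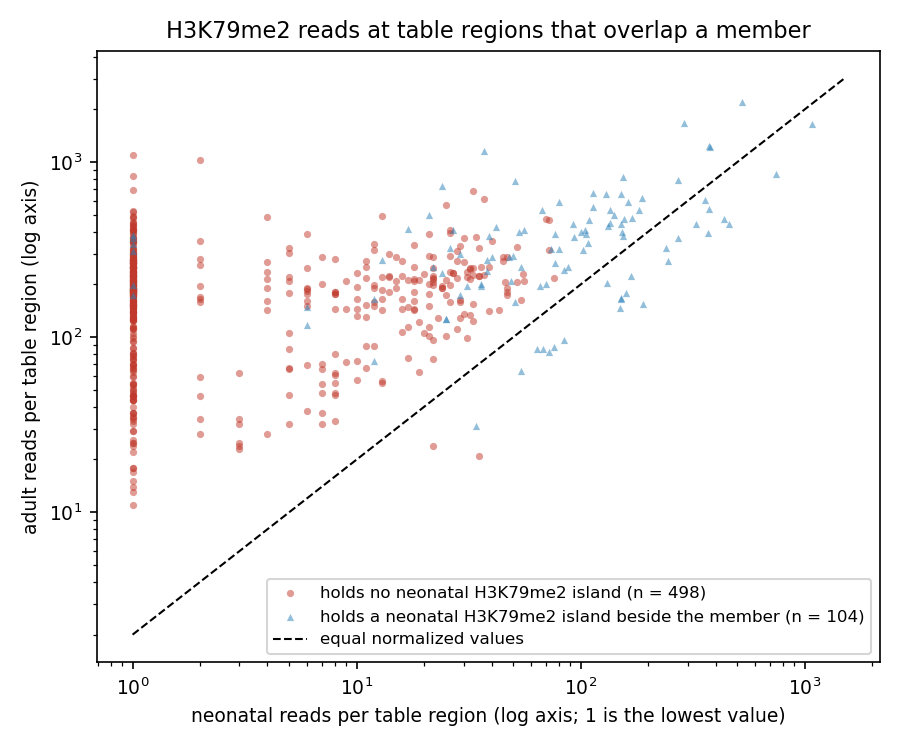
Each point is a region of the H3K79me2 stage table that overlaps a member, with neonatal reads on the x axis and adult reads on the y axis, both on log axes; the dashed line marks equal normalised values. The 498 regions without a neonatal island (circles) lie above the line except for 2, with 286 of them at 1 neonatal read, and the 104 regions that hold a neonatal island beside the member (triangles) reach higher neonatal counts.

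The widest member, chr1:93859400-93904199, spanned 44800 bp with a score of 909. Its own table region held 1 neonatal and 835 adult H3K79me2 reads, at least 74.8-fold higher in adult after normalisation, where the bound is the lower limit of the exact conditional binomial 95% interval. All such bounds take the lowest table value as 1 read, which may be a set floor and not a count, and so hold for the table values only. H3K4me3 went from 1 to 161 reads in the same region, at least 16.9-fold. It carried an adult H3K4me3 island of 3400 bp and no neonatal one, so that both marks stood at the lowest value in the neonatal library. At chr7:146708600-146737999, which spanned 29400 bp and lay 2800 bp from a neonatal H3K79me2 island, the neonatal count was above the lowest value. There were 25 neonatal and 569 adult H3K79me2 reads, a normalised ratio of 11.4 (7.63 to 17.7). The member chr19:10343800-10373199 of the same width held 1 neonatal and 493 adult reads, at least 44.1-fold. These ratios carry counting error only.

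The other members among the 6 widest were in no H3K79me2 stage table. They were chr1:196503400-196541799 with 38400 bp, chr8:94145600-94183599 with 38000 bp and chr6:31088200-31120599 with 32400 bp. All 3 carried an H3K4me3 island at both stages, with 3000 bp neonatal and 3400 bp adult at the first, 2000 and 6600 bp at the second, and 4000 and 1200 bp at the third. The second also lay 138400 bp from the nearest neonatal H3K79me2 island. A promoter mark at both stages with wide H3K79me2 in adult alone was thus present among the widest members.

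The table regions with the most adult reads that overlapped members were 63200 to 141800 bp wide and held neonatal H3K79me2 reads as well. The region at chr8:111327800-111340399 and chr8:111342400-111357399 held 527 neonatal and 2198 adult reads, a ratio of 2.09 (1.90 to 2.30). The region of chr13:114673400-114689799 held 290 and 1661 reads, a ratio of 2.87 (2.53 to 3.26). The region of chr4:104874600-104885199 and chr4:104886000-104897199 held 374 and 1229 reads, a ratio of 1.64 (1.46 to 1.85). The region of 102800 bp around chr11:19916800-19925199 went the other way, with 1080 neonatal and 1652 adult reads and a normalised ratio of 0.765 (0.708 to 0.827). In these regions the member is only a part of the counted stretch, and the counts are not those of the member alone.

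Islands of H3K4me3 and of mES H3K79me2 were less frequent at the members than at the shared wide islands, and H3K27me3 and H3K9me3 were at closer rates. A neonatal H3K4me3 island overlapped 406 members (17.0%, 15.6 to 18.6), against 46.8% (45.3 to 48.3) of the shared wide islands and 18.4% of all adult H3K79me2 islands of any width. An adult H3K4me3 island overlapped 586 members (24.6%, 22.9 to 26.3), against 53.3% (51.8 to 54.8) and 21.1%. By number of islands, the members were thus far below the shared wide islands and within a few percentage points of all adult islands. All adult islands are narrower, with a median of 3200 bp against 9800 bp in the members. By bases, 4.18% of the members lay under neonatal and 5.80% under adult H3K4me3, against 9.08% and 9.83% over all adult islands. Over the 37672 narrower adult islands without neonatal H3K79me2, the cover was 4.92% and 5.79%, close to that of the members. Neonatal H3K27me3 covered 2.68% of the bases of those narrower islands and 2.02% of the members, and mES H3K79me2 9.34% and 10.04%. Cover at these levels is thus not particular to wide adult-only islands. With MACS lists in place of SICER, the shares of the members were 5.74% for neonatal and 2.81% for adult H3K4me3, so that the order of the stages turned round, 0.964% for neonatal H3K27me3 and 5.74% for mES H3K79me2. A neonatal H3K27me3 island overlapped 165 members (6.92%, 5.97 to 8.004), against 4.33% (3.76 to 4.98) and 3.59% of all adult islands. An adult one overlapped 206 members (8.63%, 7.57 to 9.83), against 4.84% (4.24 to 5.52) and 4.88%. For H3K9me3 the values were 7.04% (6.08 to 8.14) against 6.40% (5.71 to 7.17) and, over all adult islands, 2.79% in neonatal lists and 6.45% (5.54 to 7.51) against 4.42% (3.85 to 5.08) and 3.05% in adult lists. Neonatal H3K27me3 was therefore present at a small minority of members, and over all widths its interval did not overlap that of the shared wide islands. The intervals treat islands as independent, and neighbouring islands are not.

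**Figure D2:**
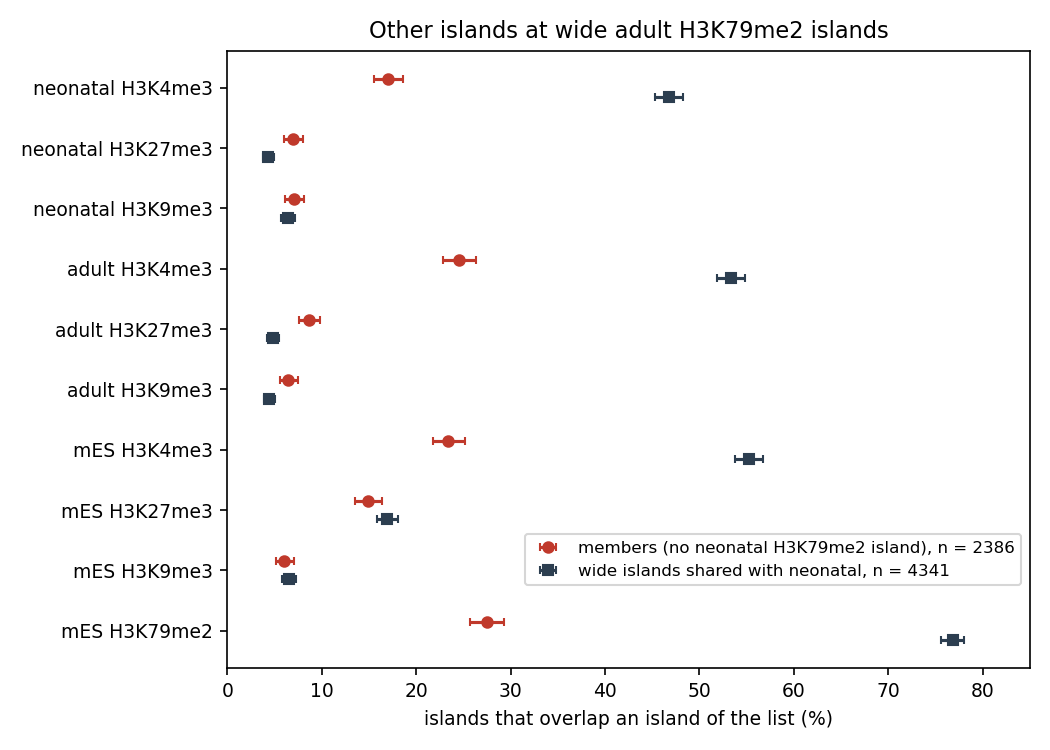
The x axis gives the percentage of islands that overlap an island of each list, for the 2386 members (circles) and the 4341 wide islands shared with neonatal cells (squares), with bars for 95% Wilson intervals. H3K4me3 at all stages and mES H3K79me2 lie far lower in the members, such as 27.5% against 76.8% for mES H3K79me2, while neonatal H3K27me3 lies at 6.92% against 4.33%.

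Within classes of width, the order of the 2 sets was the same for neonatal H3K27me3, adult H3K4me3 and mES H3K79me2. It was not for neonatal H3K9me3, at 8.03% of members and 9.19% of shared wide islands of 13000 bp or more. For members of 8000 to 9999 bp, 10000 to 12999 bp and 13000 bp or more, neonatal H3K27me3 was present at 5.15%, 8.59% and 8.89%, against 3.31%, 3.60% and 5.84% of the shared wide islands. These intervals overlapped in the narrowest class, at 4.04 to 6.55 and 2.51 to 4.35, and in the widest, at 6.62 to 11.8 and 4.79 to 7.09, but not in the middle one. Adult H3K4me3 was present at 21.7%, 24.8% and 31.7% of the members, against 46.5%, 54.8% and 58.4%. For mES H3K79me2 the shares were 26.0%, 26.2% and 33.4%, against 75.6%, 75.8% and 78.8%. Each of these shares was higher in the widest class of members than in the narrowest.

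No island of any of the other 11 lists overlapped 908 members (38.1%, 36.1 to 40.02), and no other cardiomyocyte island overlapped 1410 (59.1%, 57.1 to 61.1). Over all adult H3K79me2 islands these shares were 39.3% and 50.6%, so that the first was near the share over all islands. The sets are not alike in this, because 33.6% of all adult islands overlap a neonatal H3K79me2 island, which counts as another island. By the rule no member can overlap one, so nothing is read from the nearness. Among the 37672 narrower adult islands without neonatal H3K79me2, the share with no other island was 60.6%, and with no other cardiomyocyte island 77.4%. The part of width in these shares was not tested. One other list had an island at 612 members, and 7 members carried islands of 8 other lists, the most found.

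Where islands of other marks were present, they covered a small part of the member. The median overlap was 2800 bp, or 25.6% of the member's width, for neonatal H3K27me3, 2400 bp or 21.4% for neonatal H3K4me3, and 2200 bp or 20.4% for adult H3K4me3. Over the whole length of the members, 2.02% of the bases lay under neonatal H3K27me3, 4.18% under neonatal H3K4me3 and 5.80% under adult H3K4me3. These values were 0.892%, 11.8% and 13.9% over the shared wide islands, and 1.73%, 9.08% and 9.83% over all adult H3K79me2 islands. In the members with adult H3K4me3, its cover was nearly even from edge to centre when both edges were averaged. It was 22.0% of the bases next to the edge, 24.5% at most and 22.7% at the centre. A preference for 1 of the edges would not show in such an average. In the shared wide islands with adult H3K4me3 the cover fell from 31.1% at the edges to 24.2% at the centre. The difference between these profiles was not tested.

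**Figure D3:**
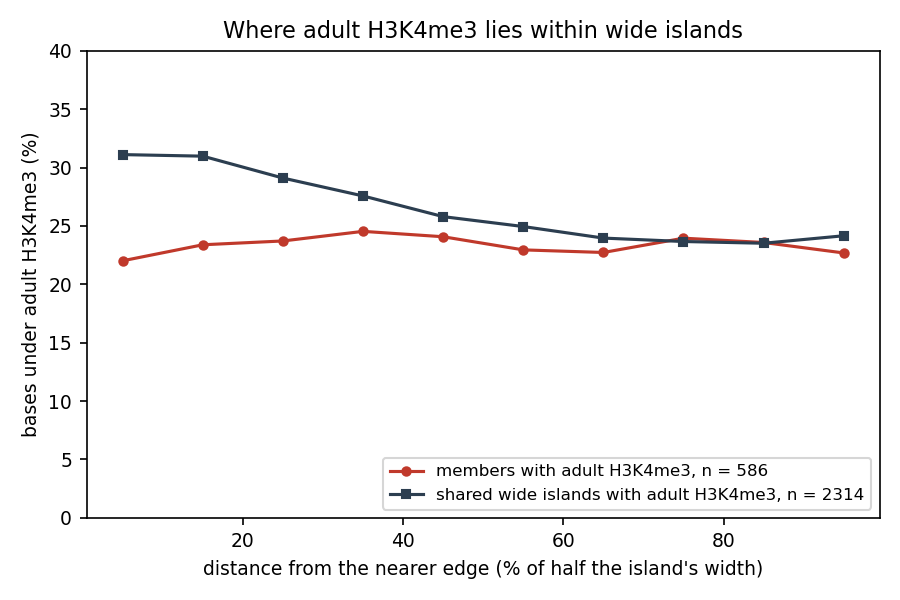
The x axis runs from the nearer edge of an island (0) to its centre (100), and the y axis gives the percentage of bases under an adult H3K4me3 island, for 586 members and 2314 shared wide islands with such an island. The members stay between 22.0% and 24.5%, and the shared wide islands fall from 31.1% to 24.2%.

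H3K4me3 was also distant from many members. The nearest adult H3K4me3 island lay a median of 12600 bp away, counting overlap as 0. Beyond the 24.6% that overlapped one, 10.5% of the members had one within 5 kb and 17.7% had none within 50 kb. Of the shared wide islands, 12.7% had one within 5 kb without overlap and 4.08% had none within 50 kb.

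Each member was given a neonatal state from its H3K4me3 and H3K27me3 islands. Neither mark had an island at 1879 members (78.8%), H3K4me3 alone at 342 (14.3%), H3K27me3 alone at 101 (4.23%) and both at 64 (2.68%). In adult cells 1694 members had neither, 486 had H3K4me3 alone, 106 had H3K27me3 alone and 100 had both. Neither neonatal mark was present at 51.7% of the shared wide islands and at 79.4% of all adult H3K79me2 islands.

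The 101 members with neonatal H3K27me3 alone differed in their adult state. No island of either mark remained at 46 of them (45.5%, 36.2 to 55.2), H3K4me3 alone was found at 25, H3K27me3 alone at 15 and both at 15. Of the 65 shared wide islands in the same neonatal state, 30 (46.2%, 34.6 to 58.1) had neither mark in adult cells. Of the 64 members with both neonatal marks, 26 had H3K4me3 alone in adult cells (40.6%, 29.5 to 52.9), 21 had both, 7 had H3K27me3 alone and 10 had neither. Among the 123 shared wide islands with both neonatal marks, 76 (61.8%, 53.0 to 69.9) had H3K4me3 alone in adult cells. The 342 members with neonatal H3K4me3 alone had H3K4me3 alone at 192 (56.1%) in adult cells and neither mark at 111 (32.5%). For the 1908 shared wide islands in that state these shares were 83.5% and 12.2%. Of the 1879 members with neither neonatal mark, 1527 (81.3%) had neither in adult cells and 243 (12.9%) had H3K4me3 alone. For the 2245 shared wide islands with neither, the shares were 75.4% and 21.1%.

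The 165 members with a neonatal H3K27me3 island carried other islands more often than the 2221 without one. An adult H3K4me3 island was present at 87 (52.7%, 45.1 to 60.2) against 22.5% (20.8 to 24.2), and a neonatal H3K4me3 island at 38.8% against 15.4%. Adult H3K27me3 was present at 58 (35.2%, 28.3 to 42.7) against 6.66%. In mES cells 101 (61.2%, 53.6 to 68.3) had an H3K27me3 island against 11.5%, whereas mES H3K79me2 was present at 26.1% (19.96 to 33.2) against 27.6% (25.8 to 29.5). Neonatal H3K9me3 also moved with H3K27me3, at 40 of the 165 (24.2%, 18.3 to 31.3) against 5.76%. The shared wide islands showed the same order with and without neonatal H3K27me3, at 75% against 52.3% for adult H3K4me3, 65.4% against 45.9% for neonatal H3K4me3, 26.6% against 3.85% for adult H3K27me3, 54.3% against 15.2% for mES H3K27me3 and 14.4% against 6.04% for neonatal H3K9me3. The part of regions enriched for several marks at once was not tested.

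Single members with the most neonatal H3K27me3 differed in their adult values. They were chosen by their neonatal islands, so the stage difference of that mark is a description. At chr15:89373800-89384199, neonatal H3K27me3 covered 9400 of 10400 bp, mES H3K27me3 covered the whole member, and no adult H3K27me3 island remained. Its table region held 73 neonatal and 16 adult H3K27me3 reads, 7.27-fold lower in adult (4.19 to 13.4). H3K79me2 there went from 1 to 224 reads, at least 19.9-fold, and H3K4me3 from 16 to 90, a ratio of 3.34 (1.95 to 6.10), with an adult H3K4me3 island of 3800 bp. This member is the one of the 6 with the most neonatal H3K27me3 in which the adult list held none of that mark.

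At chr4:151658400-151668399, neonatal H3K27me3 covered all 10000 bp and adult H3K27me3 9400 bp. Reads of H3K27me3 went from 116 to 62, 2.98-fold lower (2.17 to 4.12), while H3K79me2 went from 54 to 250, a ratio of 2.32 (1.72 to 3.17). At chr2:156440200-156451799, there were 125 neonatal and 79 adult H3K27me3 reads, 2.52-fold lower (1.89 to 3.38). The neonatal island covered 9400 bp there and the adult one 3400 bp. H3K79me2 went from 1 to 201 reads, at least 17.8-fold, and H3K4me3 from 22 to 96, a ratio of 2.59 (1.62 to 4.33). In both members the H3K27me3 reads were lower in adult, and an adult island of the mark was present.

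The member with the most neonatal H3K27me3, chr9:61230200-61243399, had the mark at both stages. Its neonatal islands covered 10600 bp and its adult islands 8800 bp, and reads over the table region of 39800 bp were 228 and 289, a normalised ratio of 0.796 (0.667 to 0.951). H3K79me2 there went from 1 to 341 reads, at least 30.4-fold. A neonatal H3K79me2 island lay 4200 bp from this member, and so at least partly inside the counted region. The lowest neonatal value there is thus no absence of the mark from the region. At chr9:44944400-44957599 neonatal and adult H3K27me3 reads were 96 and 113, a ratio of 0.739 (0.558 to 0.980), and H3K79me2 went from 1 to 164, at least 14.5-fold. At these places H3K27me3 and adult H3K79me2 islands lay over the same bases of 1 library each, and whether they sat on the same nucleosomes or in the same cells was not measured.

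The tables and the islands did not always show the same thing. At chr9:57788800-57813799, a neonatal H3K27me3 island covered 10200 bp, yet the neonatal table value was 1 read against 127 adult reads. A region at the lowest table value can thus still hold an island, and whether control reads were subtracted before the tables were made is not recorded in the sources used here. H3K4me3 at that member went from 12 to 269 reads, a ratio of 13.3 (7.499 to 26.1), and its adult island covered 16600 bp. H3K79me2 went from 1 to 444 reads, at least 39.7-fold.

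Over all members, the H3K4me3 stage table listed 368 (15.4%, 14.0 to 16.9) as higher in adult, where 16.3% of all adult H3K79me2 islands were so listed. It listed 75 (3.14%) as lower, where 7.39% of all adult islands were. Of the shared wide islands, 55.4% were listed as higher and 11.5% as lower, so members were listed far less often than these. The 434 regions involved had a median difference of 2.71 in log2 units, adult minus neonatal, against 0.79 over all 10114 regions of the table and 1.71 at the shared wide islands. Neonatal reads stood at the lowest value in 202 of the 434 (46.5%), against 26.7% of all regions and 36.2% at the shared wide islands. Among the 229 regions above the lowest value at both stages the median was 0.94, against -0.67 over all such regions and 0.83 at the shared wide islands. The H3K4me3 difference was thus much smaller without the regions at the lowest value, and then lay close to that of the shared wide islands. Table regions with a larger width stood at the lowest neonatal H3K4me3 value more often, at 20.3% up to 5000 bp and 31.3% over 20000 bp, and the part of width in the median was not tested.

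With H3K4me3 islands of the member at both stages, 78 of 124 regions were higher in adult and 46 lower, with a median of 0.69, where 55.4% of all regions of that table were higher. Without an H3K4me3 island at either stage 189 of 203 were higher, with a median of 3.64, and 135 of these 203 stood at the lowest neonatal value. Members with an island at 1 stage alone were sorted by the libraries that give the difference, so their values are a description. With a neonatal H3K4me3 island alone, 15 of 27 regions were higher in adult and 12 lower. With an adult one alone, 85 of 87 were higher and 2 lower.

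The H3K27me3 stage table listed 206 members (8.63%, 7.57 to 9.83) as higher in adult, where 6.90% of all adult islands were, and 40 (1.68%) as lower, where 1.14% were. Of the shared wide islands, 18.0% were listed as higher and 0.622% as lower. Neonatal reads were at the lowest value in 186 of 241 regions (77.2%), against 59.6% of all regions and 93.3% at the shared wide islands. Of the 47 regions above the lowest value at both stages, 15 were higher and the rest lower, with a median of -0.84, against -0.68 over all such regions of the table. Members with an H3K27me3 island at both stages gave 26 regions, of which 13 were higher and 13 lower, where 73.0% of all regions of that table were higher. Members with no H3K27me3 island at either stage gave 147 regions, of which 139 were higher, 135 of the 147 being at the lowest neonatal value.

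For H3K9me3 the table listed 172 members (7.21%) as higher and 184 (7.71%) as lower in adult, where 8.76% and 13.0% of all adult islands were. Of the shared wide islands, 22.5% were listed as higher and 35.4% as lower. The median difference over 348 regions was -0.65, against -0.45 over all regions of the table. Differences of H3K9me3 went in both directions in nearly equal numbers.

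**Figure D4:**
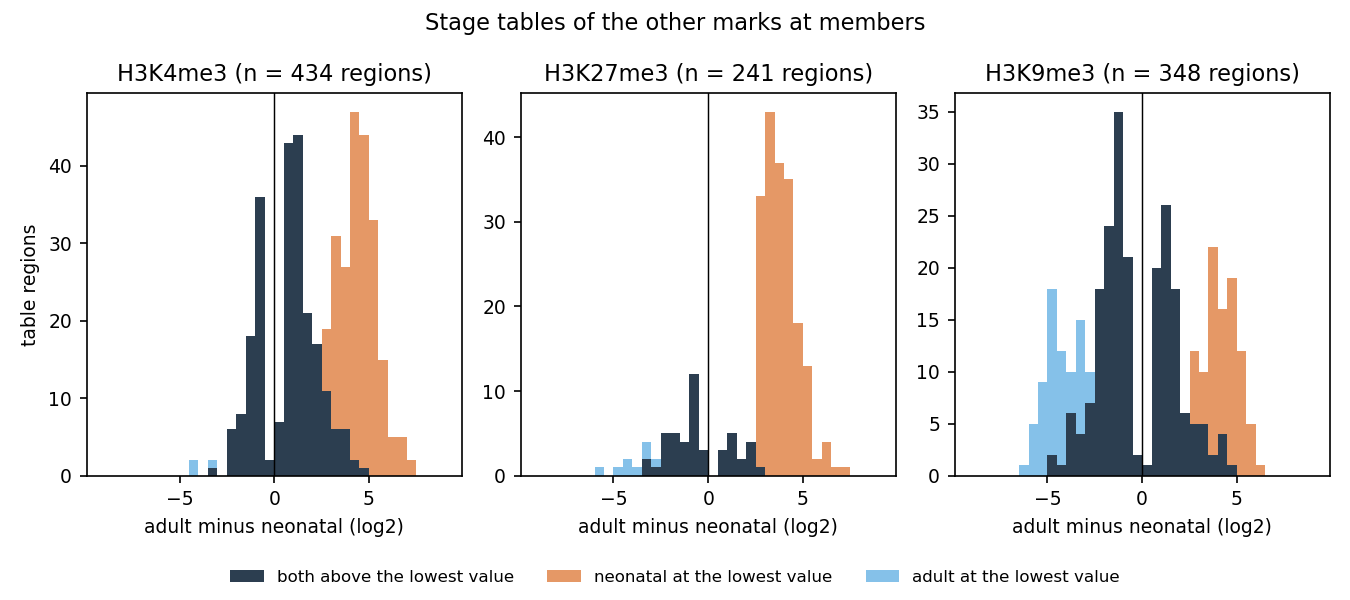
Each panel counts the regions of 1 stage table that overlap a member by their log2 difference, adult minus neonatal, with colours for regions above the lowest value at both stages and for those at the lowest value in 1 of them. Of all regions shown, 202 of 434 for H3K4me3 and 186 of 241 for H3K27me3 stand at the lowest neonatal value. Among the regions higher in adult, 158 of 360 for H3K4me3 and 15 of 201 for H3K27me3 are above the lowest value at both stages. H3K9me3 lies on both sides of 0.

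The 4 members with the highest H3K4me3 difference all stood at 1 neonatal H3K4me3 read. The first, chr11:106909600-106920199, had 302 adult reads, at least 32.0-fold, and was also the member of highest score per kb, 73.4. H3K27me3 went from 1 to 251 reads there, at least 28.02-fold, H3K9me3 from 27 to 88, a ratio of 3.58 (2.30 to 5.74), and H3K79me2 from 37 to 1153, a ratio of 15.6 (11.2 to 22.3). All 4 marks were thus higher in adult at this place, which touches a neonatal H3K79me2 island and carries no H3K4me3 island at either stage. The other members were chr7:137777600-137786799 with 245 adult H3K4me3 reads, chr8:119871400-119885799 with 197 and chr7:150598400-150615399 with 187, in table regions of 50200, 59200 and 60200 bp. None of those members carried an H3K4me3 island itself.

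At the other end, chr7:38967800-38977399 held fewer adult reads of H3K4me3 and H3K9me3 and more of H3K79me2. Neonatal H3K4me3 covered all 9600 bp of the member and neonatal H3K9me3 8600 bp, whereas adult H3K4me3 covered 1200 bp and adult H3K9me3 none. Its region held 443 neonatal and 77 adult H3K4me3 reads, 9.68-fold lower (7.59 to 12.5), and 644 and 19 H3K9me3 reads, 30.8-fold lower (19.6 to 51.6). H3K79me2 went from 1 to 303 reads, at least 27.01-fold. The other members with the lowest H3K4me3 differences rested on few reads. There were 13 neonatal and 1 adult H3K4me3 reads at chr2:163955600-163973599, 10 and 1 at chr2:157811000-157828999, and 5 and 1 at chr8:81071000-81082199.

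An mES H3K79me2 island overlapped 656 members (27.5%, 25.7 to 29.3), against 76.8% (75.5 to 78.1) of the shared wide islands and 34.2% of all adult H3K79me2 islands. It covered a median of 26.7% of the member's width, against 63.3% in the shared wide islands. The share with mES H3K79me2 was 38.5% (34.3 to 42.9) for the 493 members within 5 kb of a neonatal H3K79me2 island, 28.3% from 5 to 20 kb, 24.1% from 20 to 50 kb and 21.4% for the 646 members farther away. The share with neonatal H3K27me3 ran the opposite way over these distances, at 4.26%, 6.23%, 7.98% and 8.67%, and that with adult H3K4me3 was 24.9%, 24.5%, 25.6% and 23.4%. Members with mES H3K79me2 carried adult H3K4me3 more often, at 37.8% (34.2 to 41.6) against 19.5% (17.7 to 21.5) of those without it. The shared wide islands showed the same order, at 58.1% against 37.4%. In mES cells, both H3K4me3 and H3K27me3 had an island at 183 members, of which 88 had H3K4me3 alone in adult cells, 36 both, 16 H3K27me3 alone and 43 neither.

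In the authors' deposited table of mES against neonatal cells, 263 members (11.02%) were listed with lower H3K79me2 in neonatal cells and 103 (4.32%) with higher, where 15.3% and 14.4% of all adult islands were. In the authors' deposited table of mES against adult cells, 448 (18.8%) were listed as higher in adult and 122 (5.11%) as lower, where 15.4% and 17.8% of all adult islands were. Of the shared wide islands, 33.1% were lower and 46.4% higher in neonatal than in mES cells, and 45.3% were higher and 36.7% lower in adult. Cardiomyocyte minus mES, the median log2 difference in the authors' deposited tables was -1.93 over 365 regions for neonatal and 3.61 over 571 regions for adult cells. Over all regions of the authors' deposited tables the medians were -0.43 and 1.23, and at the shared wide islands 0.81 and 0.75. Both tables share the mES library, and each shares a cardiomyocyte library with the rule, so these values are a description only.

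In the authors' deposited table of H3K27me3 in mES against adult cells, 248 members (10.4%) were lower in adult and 141 (5.91%) higher, where 18.5% and 5.29% of all adult H3K79me2 islands were. In the authors' deposited table of H3K4me3 in mES against adult cells, 316 members (13.2%) were higher in adult and 119 (4.99%) lower, where 12.9% and 13.6% of all adult H3K79me2 islands were. Of the shared wide islands, 62.2% were lower and 8.20% higher in adult for H3K27me3, and 43.3% were higher and 22.7% lower for H3K4me3.

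The members with the most mES H3K79me2 had it along most of their width. It covered 23200 of 25000 bp at chr10:19879600-19904599, 22400 of 25000 bp at chr16:28890000-28914999, 21000 of 25200 bp at chr15:84658600-84683799 and 19800 of 21000 bp at chr12:103889800-103910799. The region of chr15:84658600-84683799 held 1 neonatal and 527 adult H3K79me2 reads, at least 47.1-fold, and in the authors' deposited table the neonatal value was below the mES value by a log2 difference of -8.21. The region of chr12:103889800-103910799 held 2 neonatal and 1027 adult reads, a ratio of 257 (70.9 to 2124), and differences from mES of -9.13 for neonatal and -1.11 for adult cells in the authors' deposited tables. Within both of these members H3K79me2 was broad in mES and adult lists and lacking in the neonatal list. The nearest neonatal H3K79me2 island lay 70400 bp from the member on chromosome 15, but only 7600 bp from that on chromosome 12. The others held more neonatal reads in their table regions, 67 against 531 adult reads on chromosome 10 and 130 against 660 on chromosome 16.

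The nearest neonatal H3K79me2 island was a median of 21100 bp away, with quartiles of 6800 and 55150 bp. When members up to 20 kb apart were joined, 820 (34.4%) fell into runs of 2 or more, 30 runs held at least 4 members, and 1566 members stood alone. The longest run, chr14:12597800-12751999, held 8 members that covered 117 of 154.2 kb. Its 14 adult H3K79me2 islands included none shared with neonatal cells, and 7 of the 8 members carried mES H3K79me2. The run of 7 members at chr1:91517000-91655199 had mES H3K79me2 at 2, and the 6 members at chr9:68597200-68677199 had it at none. The 5 members of chr8:111327800-111396399 all carried mES H3K79me2, with no H3K4me3 island of either cardiomyocyte stage and no neonatal H3K27me3. Members of a run may be pieces of 1 domain, so the number of members is not a number of independent places.

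Every chromosome from 1 to 19 held members. Their share of the wide islands ran from 29.5% (25.4 to 33.9) on chromosome 4 to 46.1% (39.9 to 52.4) on chromosome 16. The intervals of many chromosomes overlapped.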

How the data were processed

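Per the submitters' processing notes, Bowtie 0.12.8, SICER 1.1, MACS 1.4.2, DiffBind 1.2.0 and the build mm9 were used. The authors deposited per-library SICER and MACS lists, each region with a score from the caller, used only to rank or filter within a list. Island ends include the last base. The deposited stage tables hold the log2 of a normalised read count per region and stage, and a false discovery rate (an adjusted p-value) under 0.01. When unlogged and divided by the column minimum, 100% of the values were whole within 0.01, and they were taken as reads with a floor of 1. Normalised values are reads times a factor per library. For neonatal and adult cells it was 1.41 and 0.707 in the H3K79me2 table, 1.30 and 0.771 in that of H3K4me3, 1.26 and 0.792 in that of H3K27me3 and 0.954 and 1.05 in that of H3K9me3. Of the mES cells, which belong to no sample here, only the island positions and the authors' deposited log2 differences were used, and 8 columns of mES values and 8 of mES scores were not.

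Groups follow the sample labels. Islands overlapped when they shared at least 1 bp. Shares carry 95% Wilson intervals and read ratios exact conditional binomial intervals, scaled by the factors. Where a stage stood at the floor, the lower limit is printed as a bound. All intervals cover counting error only, and PCR reads without molecular identifiers are not independent molecules. The total depth of the libraries was not used here, and read sums cover listed regions. With 1 library per group no p-value was computed. Interval and overlap code was tested on simulated data.

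Members, lists and alternatives were chosen with earlier results of these data known. Named were the 6 widest members, the 6 with most adult H3K79me2 reads, the 6 with most neonatal H3K27me3, the 4 highest and 4 lowest in H3K4me3 difference, the 4 with most mES H3K79me2 and 4 on each side of the width limit. Runs and single members in the closing observations were chosen after their values were seen. Gene lists and sequences were not used, because the reference tables are of another build. Python 3.11.15, pandas 2.3.3, numpy 2.4.6, scipy 1.17.1 and matplotlib 3.10.9 were used.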

Additional observations from a re-analysis of the deposited data

How the results depend on the processing

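Of 40 values recomputed under other settings, 18 stayed within their 95% interval or, for the number of members, within 1.5 times, and 22 did not. Of the 18, 7 come from limiting the adult list by score, which removed no member and so tests nothing. Of these values only the median H3K4me3 difference can change sign, and it stayed positive. The others are counts or shares, which cannot be negative. The cause of the moves was not tested.

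The number of members was 636 at a width of 12000 bp or more and 5128 at 6000 bp or more. At 12000 bp the share of members with neonatal H3K27me3 was 9.43%, with neonatal H3K4me3 22.8%, with adult H3K4me3 29.9%, with mES H3K79me2 31.3% and with a higher adult value in the stage table of H3K79me2, at 34.9%, and the median H3K4me3 difference was 3.74. At 6000 bp the shares were 14.5% for neonatal H3K4me3, 20.1% for adult H3K4me3, 23.9% for mES H3K79me2 and 18.2% for a higher adult H3K79me2 value. With at least 1000 bp shared they were 14.9% for neonatal H3K4me3, 21.4% for adult H3K4me3 and 24.9% for mES H3K79me2. Without the members within 5000 bp of a neonatal H3K79me2 island, 1893 remained and the mES H3K79me2 share was 24.6%.

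With MACS lists, the shares were 0.964% for neonatal H3K27me3, 5.74% for neonatal H3K4me3, 2.81% for adult H3K4me3 and 5.74% for mES H3K79me2. Neonatal thus stood above adult H3K4me3. With only the upper part by score of the neonatal H3K27me3 list, that share was 4.23%. Among regions above the floor at both stages the median H3K4me3 difference was 0.94. MACS shares were not computed for the shared wide islands, so the sets are compared with SICER lists only. No paired analysis was possible because each group holds 1 library.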

Other observations

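The members of highest score per kb, chosen after their values were seen, lay partly on 1 stretch of chromosome 8. The member chr8:19781400-19791999 had a score of 46.1 per kb, with H3K4me3 islands over all of its 10600 bp at both stages. Its H3K79me2 reads were 26 neonatal and 408 adult, a ratio of 7.85 (5.28 to 12.2), and its H3K9me3 reads 22 and 112, a ratio of 5.60 (3.52 to 9.29). At chr8:19974000-19986399, with 44.1 per kb, no island of another list was present. The member chr8:72087800-72109599 had the highest score of all, 938, and held 1 neonatal and 690 adult H3K79me2 reads, at least 61.8-fold. Its H3K9me3 reads were 6 and 148, a ratio of 27.1 (12.2 to 75.1). Other marks were higher in adult at the same places, with H3K27me3 at 1 and 47 reads at the first of these members, at least 5.04-fold, and H3K4me3 at 1 and 134 reads at the last, at least 14.0-fold.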
